A study of Arabidopsis thaliana with 16 samples.

Results

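The 54 genes described here are encoded by the plastid genome of Arabidopsis thaliana, and each is read by 1 probe set of the ATH1 array. A probe set was taken when the array's annotation pairs it with exactly 1 gene whose symbol begins with psa, psb, pet, ndh or rpo and a capital letter, is atpA, atpB, atpE, atpF, atpH, atpI, rbcL, accD, clpP, matK, cemA or ccsA, or begins with ycf. The rule took 54 of 22746 probe sets that are not array controls, and no measured value entered it. All 54 symbols have a locus on the plastid genome in RefSeq (assembly TAIR10.1), which lists 85 protein-coding plastid genes. Of the genes the rule names, ndhB, ycf1 and ycf2 lie on probe sets with several entries and were not taken. By complex the members were 20 photosystem genes (5 of photosystem I and 15 of photosystem II), 6 genes of the cytochrome b6f complex, 6 of the ATP synthase, 10 of the NAD(P)H dehydrogenase-like (NDH) complex, 4 of the plastid RNA polymerase, and 8 others.

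The plastid genome is a remnant of a cyanobacterial genome. It keeps core subunits of the photosynthetic complexes, the large subunit of Rubisco and most subunits of a bacterial-type RNA polymerase, while the remaining subunits, the sigma factors and the RNA-binding proteins that cut, edit and stabilise plastid RNA are made from nuclear genes. The bacterial-type polymerase transcribes chiefly photosynthesis genes, and phage-type polymerases encoded in the nucleus transcribe, among others, the rpo genes themselves. Plastid genes are mostly cotranscribed in clusters, and levels of single messages depend much on processing and stability. A poly(A) tail marks plastid RNA for decay, so an array whose labelling starts from poly(A) tails reads plastid messages indirectly. The labelling steps are given in the labels only as the manufacturer's standard procedure.

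The series contains 16 arrays of shoots cut from 8-day-old seedlings of the ecotype Landsberg erecta, grown in continuous light. The rga line carries a dexamethasone (DEX)-inducible construct for rga-delta17, a dominant DELLA protein that gibberellin does not remove, and DELLA proteins are nuclear repressors of gibberellin signalling. The vector line carries the same construct with an empty cassette. All seedlings of every group were sprayed with 2 µM gibberellin A4 (GA4) 16 h before the experiment and then sprayed either with 2 µM GA4 or with 2 µM GA4 and 10 µM DEX. In the rga line both treatments were sampled at 2 h and at 4 h with 3 biological replicates each, and in the vector line both were sampled at 4 h only, with 2 each. The labels name neither the promoter and activator behind the construct, nor how many independent transformants each line stands for, nor the number of seedlings in a sample. DEX effects at 2 h in the vector line were not analysed here.

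Several facts of the arrays bear on the values below. The 2 vector line arrays with DEX stood apart from the other 14 over the 17059 probe sets tested. They correlated with them at 0.789 to 0.885, against 0.916 to 0.970 between groups among the other 14 and 0.963 to 0.977 within groups. Over the members alone they did not stand apart, at 0.971 to 0.988 against 0.958 to 0.997 between groups among the other 14. The 25S ribosomal RNA control gave signals of 12530 and 13090 on these 2 arrays, 422 and 526 on the vector line GA4 arrays, and 392 to 2046 on the 12 rga line arrays. The array medians were 141 and 138 on them and 167 to 193 elsewhere. The ratio of the 3′ to the 5′ actin control was 1.48 to 1.71 in the rga line and 1.75 to 1.92 in the vector line. Of 15 listed shoot markers the annotation names a probe set for 1, RCA (Rubisco activase), with a signal of 16740 to 23390 on all arrays, and of 18 root markers for 2, the root hair expansins EXPA7 and EXPA18, with 22.1 to 183.5 and 50.5 to 198.3.

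All 54 members gave a measurable signal on every array. Single values ran from 63.7 for ndhF to 31860 for atpB, none lay at the floor of 7.95 set for low values, and all passed the filter on dim probe sets. Ranked by mean signal among all probe sets tested, the median member lay at percentile 97.2, the lowest at 34.2, and 35 of 54 lay in the top 5 percent. Signals of different probe sets depend on their probes and do not rank the genes by abundance. The brightest probe set of each array read 26070 to 37890, so the strongest members lay near the top of the recorded range, where changes may be compressed. The members together made up 2.35% to 2.83% of the summed signal of an array. The median SD between replicates, pooled over groups, was 0.18 on the log2 scale for members and 0.21 for all probe sets tested. In whole shoots, fewer cells of a type and less RNA per cell cannot be told apart. Nuclear and mitochondrial DNA of Arabidopsis also holds stretches of plastid sequence, and RNA from such copies cannot be told apart from plastid RNA here.

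**Figure D1:**
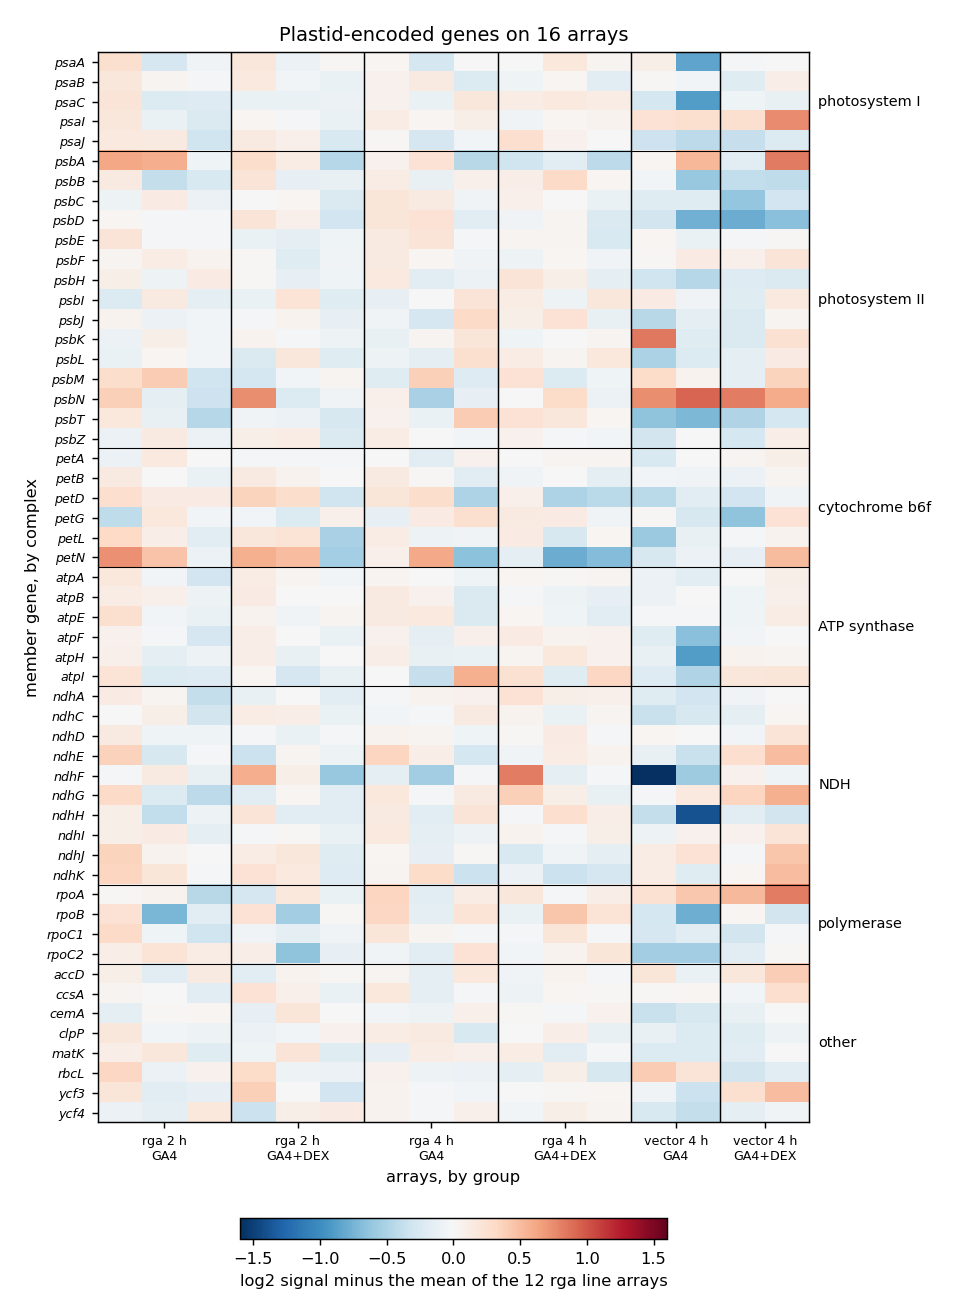
Signal of the 54 members (rows, by complex) on the 16 arrays (columns, by group), as the log2 signal minus the member's mean over the 12 rga line arrays. The rga line columns are mostly pale, the second vector line GA4 array is lowest for ndhH, atpH and psaC, and ndhF is lowest on the first vector line GA4 array.

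Induction of rga-delta17 with DEX did not bring any plastid-encoded member past the test, at 2 h or at 4 h. After 2 h of DEX 0 of 54 members were called at an adjusted p below 0.05 (limma, Benjamini-Hochberg over 17059 probe sets), where 4.14% of all probe sets tested were called. At an unadjusted p below 0.05 there was 1 member, rpoC2, against 14.3% of all probe sets. After 4 h 0 of 54 were called against 5.16% of all probe sets, and 0 against 16.2% at an unadjusted p below 0.05. The members' median log2 change was -0.02 at 2 h and -0.01 at 4 h, beside -0.01 and -0.02 over all probe sets tested. The 95% interval of the change lay within 1 log2 unit either way (a 2-fold change) for all 54 members at 2 h and for 52 at 4 h, the exceptions being ndhF and petN, and within 0.5 log2 units for 46 at each time.

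The complexes differed little in these medians. At 2 h the complex medians ran from -0.05 for the cytochrome genes to 0.03 for the ATP synthase, and at 4 h from -0.04 for the cytochrome genes to 0.08 for photosystem I. The mock and DEX arrays of the rga line were fully separate for 2 of 54 members at 2 h, against 18.5% of all probe sets tested, and for 1 at 4 h, against 20.4%.

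The psbA gene codes for the D1 reaction centre protein of photosystem II, which is replaced continually in the light. At 2 h psbA had the lowest change of the members in the rga line: the GA4 arrays read 11710, 11400 and 7252 and the GA4 plus DEX arrays 9260, 8249 and 5553, and the groups overlapped, though each DEX array read lower than the GA4 array of the same number. The change was -0.40 ± 0.25 (log2, SE, n = 3 per group; limma adjusted p = 0.532). At 4 h the values were 8003, 8981 and 5599 with GA4 and 6096, 6709 and 5677 with DEX, which again overlapped. The highest change at 2 h was that of psbN, 0.19 ± 0.23, with 303, 212 and 186 on the GA4 arrays and 389, 200 and 225 with DEX. The replicates of psbN spread more than the groups differed.

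The rpoC2 gene codes for a catalytic-core subunit of the plastid polymerase. Its signal at 2 h was 4215, 4557 and 4232 with GA4 and 4220, 2504 and 3568 with DEX. One DEX array lay inside the GA4 range and the others below it, a change of -0.37 ± 0.14 (adjusted p = 0.211), and without the first DEX array it was -0.54 (adjusted p = 0.0476). At 4 h rpoC2 read 3761, 3445 and 4595 with GA4 and 3804, 4070 and 4488 with DEX, with full overlap.

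At 4 h the extremes in the rga line were members with a wide spread between replicates. For ndhF, a membrane subunit of the NDH complex, the GA4 arrays read 179, 134 and 195 and the DEX arrays 348, 177 and 195, so that 1 DEX array stood above the rest. The change was 0.46 ± 0.31 (adjusted p = 0.534). For petN, a small subunit of the cytochrome b6f complex, the GA4 arrays read 681, 981 and 410 and the DEX arrays 579, 371 and 400, a change of -0.56 ± 0.31 (adjusted p = 0.422). All 3 DEX values of petN lay within or below a GA4 range that itself spanned more than the difference.

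Of the 2 members with the highest signal in each complex, none was called for DEX in the rga line. Over the 12 rga line arrays atpB ran from 24520 to 31860 and atpE from 21580 to 30230 in the ATP synthase, petB from 19150 to 24190 and petA from 11280 to 14230 in the cytochrome complex, and ndhI from 15220 to 18990 and ndhD from 9966 to 11840 in the NDH complex. The photosystem genes psaB and psbM ran from 15550 to 20500 and from 18280 to 30250, the polymerase genes rpoC1 and rpoA from 5132 to 7891 and from 3752 to 6489, and clpP and cemA from 14000 to 18860 and from 11300 to 14240. The spread of psbM between replicates of 1 group was as wide as its range over all groups.

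DEX in the vector line was followed by more called members than in the rga line, though their share was smaller than that of all probe sets. In the vector line 9 of 54 members were called, 8 higher and 1 lower, which is 16.7% of the members against 47.3% of all probe sets tested. Of all probe sets 17.7% were called higher and 29.6% lower. At an unadjusted p below 0.05 there were 13 members, against 53.2% of all probe sets. The vector line arrays with and without DEX were fully separate for 26 members, 24 of them higher and 2 lower with DEX, where 76.3% of all probe sets tested did not overlap (30.0% higher, 46.3% lower). The members' median change was 0.18 and that of all probe sets -0.15, a difference of 0.33. After quantile normalization the median of all probe sets was -0.02 and the members lay 0.26 above it. With every array centred on its median these values were 0.12 and 0.33. The count of members called was 13 (11 higher, 2 lower) and 32 (all higher) under these scalings. Of all probe sets 42.0% and 47.1% were called under them, with 3128 and 4673 of 17059 higher. How many members rose thus depends on what the arrays are scaled to. These results rest on the 2 arrays with a high 25S control, whose part in them was not tested.

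**Figure D2:**
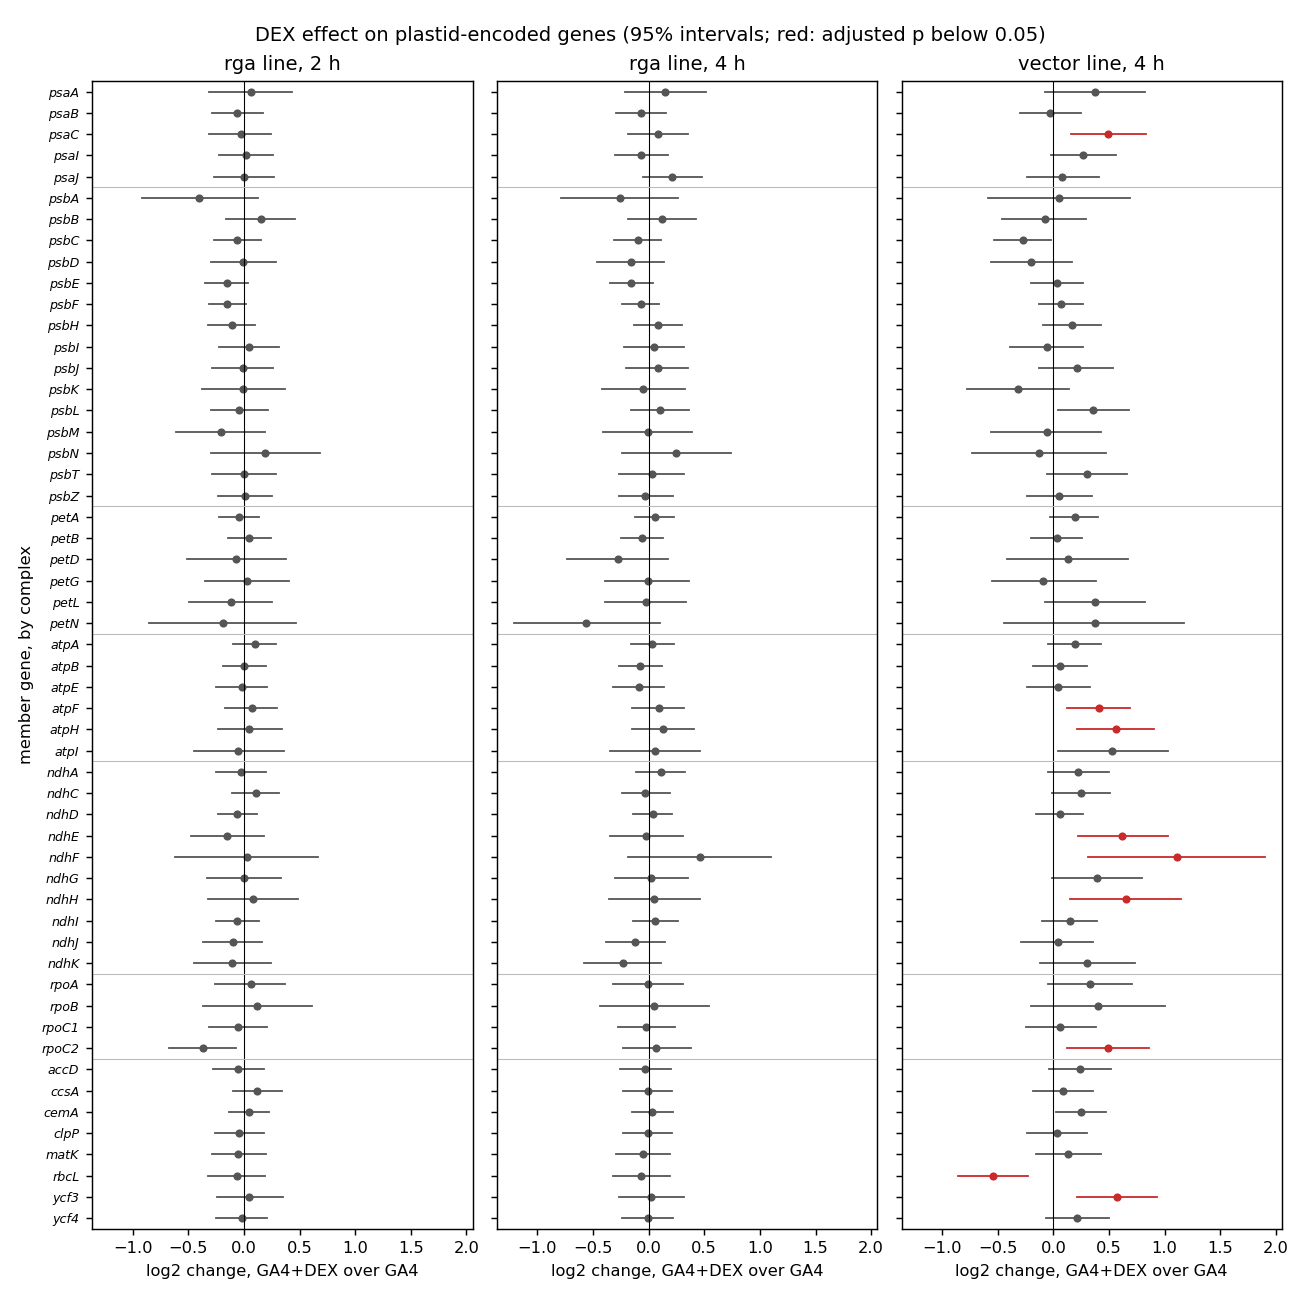
Log2 change of each member with GA4 plus DEX over GA4, with its 95% interval, in the rga line at 2 h and 4 h and in the vector line at 4 h (members ordered by complex, red where the adjusted p is below 0.05). In the rga line no member is red, and in the vector line 9 are, rbcL lower and 8 others higher.

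The NDH complex, which passes electrons around photosystem I in the thylakoid membrane, had 3 of its 10 members higher with DEX in the vector line, where 17.7% of all probe sets were called higher, and all 10 changes were positive (9 of 10 after quantile normalization). The median change was 0.28. After quantile normalization 4 of 10 were called higher, and with centred arrays 9 of 10 (median 0.55). The first of the 3 was ndhF, with 63.7 and 133 on the GA4 arrays and 208 and 188 with DEX. The DEX values lay inside the range of the rga line arrays (130 to 348), and of the GA4 values one lay far below it and the other near its low end. The change was 1.11 ± 0.38 (adjusted p = 0.022), and it was 0.58 (adjusted p = 0.299) without the first GA4 array, 1.04 (adjusted p = 0.0913) without the first DEX array and 1.18 (adjusted p = 0.0606) without the second.

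The other 2 were ndhH and ndhE, which code for a peripheral-arm and a membrane subunit. For ndhH the GA4 arrays read 1293 and 640 and the DEX arrays 1491 and 1372, a change of 0.65 ± 0.24 (adjusted p = 0.0305). The second GA4 array was far below all the others, and without it the change was 0.14 (adjusted p = 0.621), while it was 0.59 and 0.71 (adjusted p = 0.123 and 0.0696) without the first and the second DEX array. For ndhE the GA4 arrays read 2037 and 1720 and the DEX arrays 2671 and 3116, a change of 0.62 ± 0.19 (adjusted p = 0.0128), which was 0.50 (adjusted p = 0.11) without the second GA4 array and 0.51 (adjusted p = 0.105) without the second DEX array. The rga line values of ndhE ran from 1747 to 2854, so that one DEX value lay in the upper part of that range and the other above it. The 2 brightest NDH probe sets were not called under the deposited scaling, though both were with centred arrays (adjusted p = 0.0134 for ndhI and 0.0276 for ndhD): ndhI read 16080 and 17890 with GA4 and 17900 and 19670 with DEX (0.15 ± 0.11), and ndhD read 10930 and 10760 with GA4 and 10350 and 12320 with DEX (0.06 ± 0.10).

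The ATP synthase makes ATP from the proton gradient across the thylakoid membrane. In the vector line 2 of its 6 members were called higher with DEX, where 17.7% of all probe sets were, and the median change was 0.30. These were atpH, which codes for the membrane ring subunit, and atpF, which codes for a stalk subunit. For atpH the GA4 arrays read 8738 and 5145 and the DEX arrays 9883 and 9829, a change of 0.56 ± 0.17 (adjusted p = 0.00987). For atpF the GA4 arrays read 8023 and 5777 and the DEX arrays 8864 and 9185, a change of 0.41 ± 0.14 (adjusted p = 0.0205). In each gene the second GA4 array was the low one, and without it the changes were 0.17 for atpH (adjusted p = 0.326) and 0.17 for atpF (adjusted p = 0.376). The call of atpF was also lost without either DEX array (adjusted p = 0.0541 without the first and 0.0959 without the second). The 2 brightest members, atpB and atpE, code for the catalytic beta subunit and for the epsilon subunit of the soluble part. The atpB signal was 26980 and 28560 with GA4 and 27440 and 30390 with DEX (0.06 ± 0.11), and that of atpE 25050 and 24930 with GA4 and 24130 and 27550 with DEX (0.04 ± 0.13). In both the groups overlapped, and with centred arrays atpB was called (0.33, adjusted p = 0.0383).

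Photosystem I had 1 of 5 members higher with DEX in the vector line, and photosystem II 0 of 15, with median changes of 0.27 and 0.03, where 17.7% of all probe sets were called higher. With centred arrays 3 of 5 and 6 of 15 were higher, with medians of 0.54 and 0.30, so the low count holds for the deposited scaling and for quantile normalization (1 of 5 and 0 of 15 higher, and 1 photosystem II member, psbC, lower). At an unadjusted p below 0.05 there were 2 photosystem II members, psbL (0.36 ± 0.15, adjusted p = 0.057) and psbC (-0.27 ± 0.12, adjusted p = 0.0745). The called member was psaC, which codes for the iron-sulfur protein that hands electrons to ferredoxin. It read 3344 and 2194 on the GA4 arrays and 3883 and 3738 with DEX, a change of 0.49 ± 0.16 (adjusted p = 0.0161). Without the second GA4 array the change was 0.19 (adjusted p = 0.365), and without the first DEX array 0.46 (adjusted p = 0.0725). The reaction centre gene psaB read 18210 and 17450 with GA4 and 15720 and 19470 with DEX (-0.03 ± 0.13), and psbM, a small photosystem II subunit, 27980 and 23690 with GA4 and 20670 and 29330 with DEX (-0.06 ± 0.23). For psbA the DEX arrays disagreed, with 6775 and 13590, beside 7763 and 11030 with GA4 (0.05 ± 0.30).

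Among the cytochrome b6f genes none of 6 was called in the vector line, where 47.3% of all probe sets were. None passed an unadjusted p below 0.05, against 53.2% of all probe sets. The median change was 0.16. The petB signal (cytochrome b6) was 21120 and 20970 with GA4 and 20490 and 22550 with DEX, and that of petA (cytochrome f) 10810 and 12810 with GA4 and 13180 and 13590 with DEX. The petA change was 0.19 ± 0.10 (adjusted p = 0.156), and petA was called after quantile normalization (0.31, adjusted p = 0.0423) and with centred arrays (0.46, adjusted p = 0.0035), where petL was called as well. Of the polymerase genes 1 of 4 was called higher, rpoC2, where 17.7% of all probe sets were. The rpoC2 signal was 2648 and 2658 on the GA4 arrays and 3491 and 3955 with DEX, a change of 0.49 ± 0.18 (adjusted p = 0.0297). Its GA4 replicates lay close together, and rpoC2 was not called after quantile normalization (0.42, adjusted p = 0.0529). The adjusted p of rpoC2 was 0.0968 and 0.0944 without the first and the second GA4 array and 0.172 without the second DEX array. The alpha subunit gene rpoA read 6081 and 6890 with GA4 and 7313 and 9001 with DEX (0.33 ± 0.18, adjusted p = 0.153), and rpoC1 5322 and 5680 with GA4 and 5212 and 6341 with DEX (0.06 ± 0.15). With centred arrays rpoA was called (0.6, adjusted p = 0.0145).

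Of the 8 other members, 1 rose and 1 fell with DEX in the vector line. The gene that fell was rbcL, which codes for the large subunit of Rubisco, the carbon-fixing enzyme. It read 3785 and 3302 with GA4 and 2334 and 2522 with DEX, a change of -0.54 ± 0.15 (adjusted p = 0.00589). Against the rga line's range of 2402 to 3594, one GA4 value lay above it and the other in its upper part, and one DEX value lay below it and the other near its low end. The fall was -0.44 (adjusted p = 0.0672) without the first GA4 array and -0.27 (adjusted p = 0.176) with arrays centred on their medians. The gene that rose was ycf3, an assembly factor of photosystem I, with 1476 and 1207 on the GA4 arrays and 1830 and 2148 with DEX. The change was 0.57 ± 0.17 (adjusted p = 0.0104), which was 0.43 (adjusted p = 0.119) without the second GA4 array and 0.46 (adjusted p = 0.102) without the second DEX array. The plastid protease subunit gene clpP was not called (15380 and 14260 with GA4, 14530 and 15730 with DEX, 0.03 ± 0.13), and the envelope protein gene cemA read 9743 and 10440 with GA4 and 11440 and 12510 with DEX (0.25 ± 0.11, adjusted p = 0.0649). The cemA change was called after quantile normalization (0.39, adjusted p = 0.017) and with centred arrays (0.52, adjusted p = 0.000912).

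**Figure D3:**
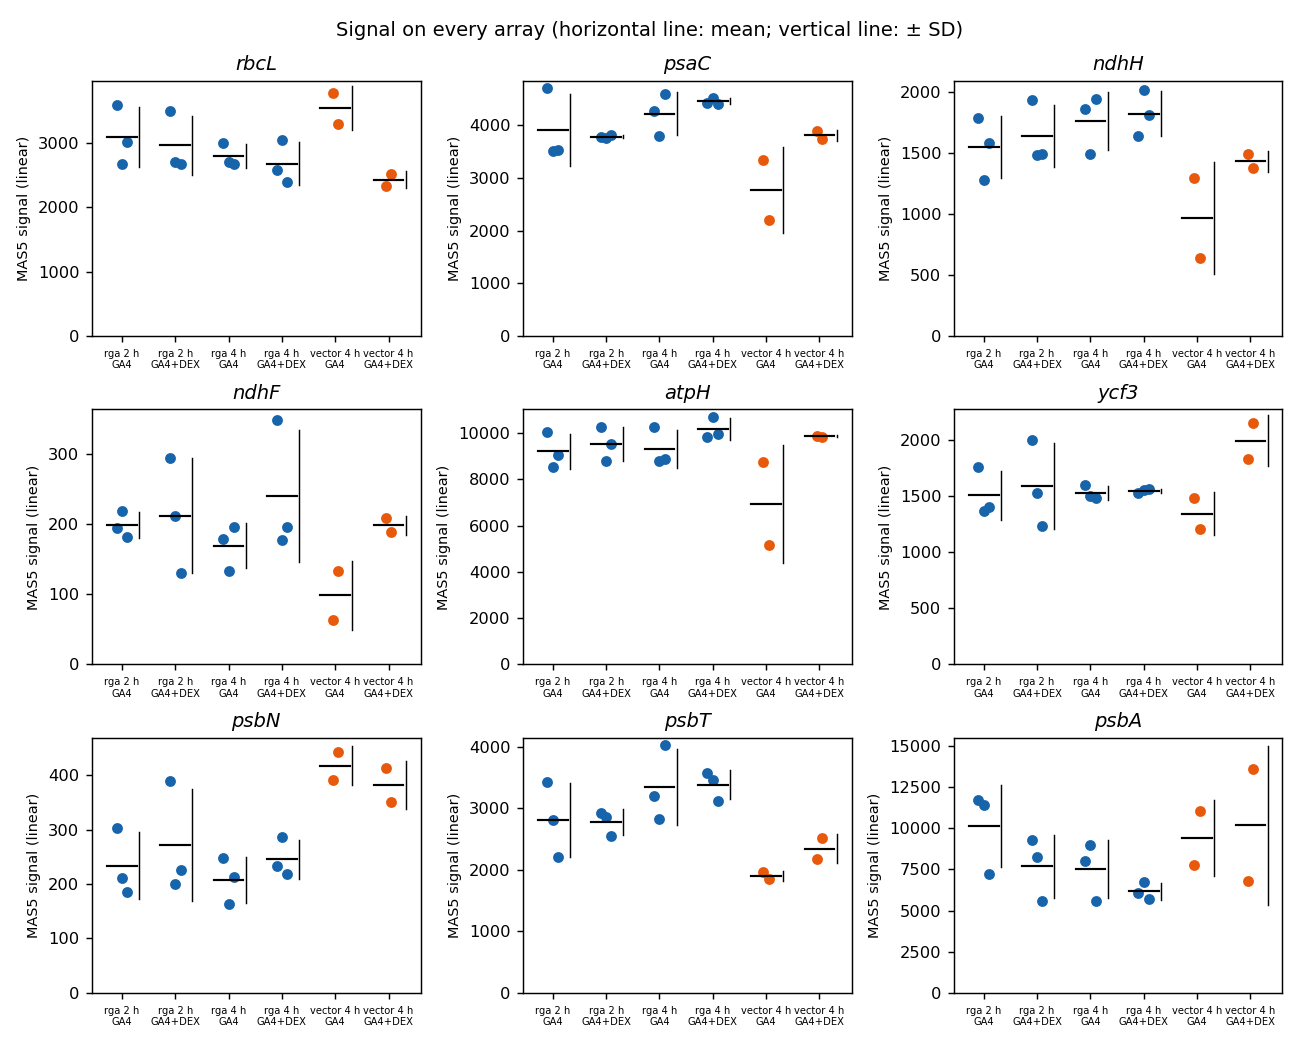
MAS5 signal on a linear scale for 9 members on every array (points; blue rga line, orange vector line), with the mean (horizontal line) and SD (vertical line) of each group. The low second vector line GA4 array is visible for psaC, ndhH and atpH, and the mean of rbcL is highest in the vector line GA4 group.

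The members moved unevenly between the 2 vector line arrays with DEX. On the second of them 46 of 54 members lay above the mean of the pair, and on the first 8 of 54, and the members' mean log2 signal was 12.30 and 12.10. It was 12.05 and 11.97 on the vector line GA4 arrays and 12.05 to 12.32 on the rga line arrays. Such joint shifts were not particular to the vector line. In the rga line at 2 h, 42 members lay above the group mean on the first GA4 array and 7 on the third. With DEX at 2 h these counts were 41 and 15. Without the second DEX array of the vector line the members' median change was 0.06, and without its second GA4 array 0.14. Most of the 9 calls did not hold in either fit, which leaves a single array in that group.

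The DEX effects of the 2 lines at 4 h were compared directly through the difference of the effects, rga line minus vector line. No member was called by limma, where 30.5% of all probe sets tested were. The members' median difference was -0.17, beside 0.14 over all probe sets. At an unadjusted p below 0.05 there were 3 members, against 39.7% of all probe sets: ndhE (-0.64 ± 0.25, adjusted p = 0.0602), ycf3 (-0.55 ± 0.22, adjusted p = 0.0713) and rbcL (0.48 ± 0.19, adjusted p = 0.073). The lowest difference was that of petN, -0.92 ± 0.49 (adjusted p = 0.178), whose vector line arrays read 538 and 607 with GA4 and 591 and 920 with DEX. Under quantile normalization rbcL was called (0.60, adjusted p = 0.0262). With arrays centred on their medians 14 members were called, against 30.3% of all probe sets. All 14 were lower in the rga line's effect, and rbcL was not called (0.22, adjusted p = 0.467). Intervals were wide: 43 of 54 lay within 1 log2 unit either way and 15 within 0.5. With the first vector line GA4 array left out the differences were -1.11 for ndhH and -0.81 for atpH, on a control of a single array. Without the third rga line GA4 array ndhE was called (-0.81, adjusted p = 0.0135), and without the third rga line DEX array rbcL was (0.55, adjusted p = 0.0496).

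**Figure D4:**
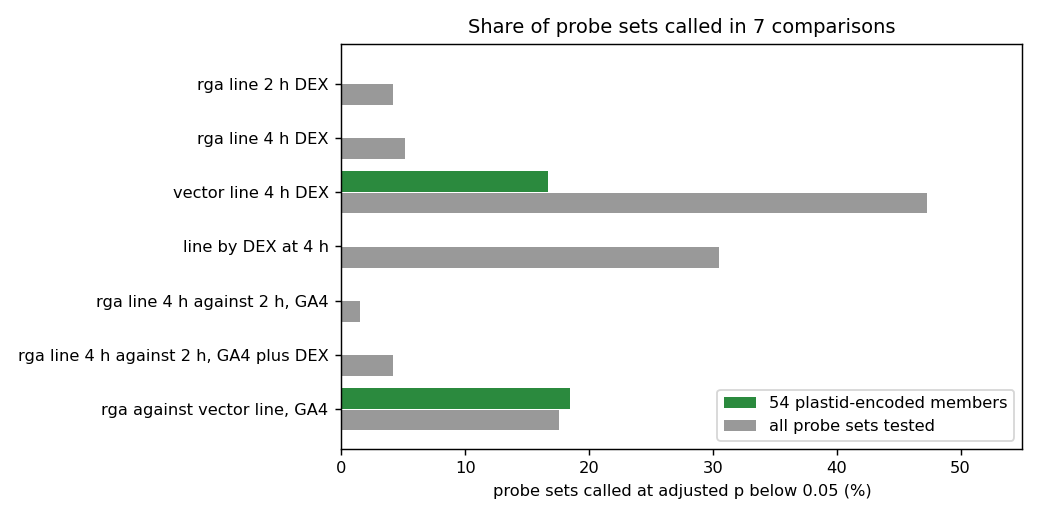
Percentage of probe sets called at an adjusted p below 0.05 in the 7 comparisons, for the 54 members (green) and for all probe sets tested (grey). The members have bars in 2 comparisons, 16.7% against 47.3% for DEX in the vector line and 18.5% against 17.6% for the rga line against the vector line, and 0 in the other 5.

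Under GA4 alone at 4 h, 10 of 54 members differed between the lines, 9 higher and 1 lower in the rga line. This is 18.5% of the members against 17.6% of all probe sets tested, a share near the background. Of all probe sets 11.5% were called higher and 6.03% lower, and at an unadjusted p below 0.05 there were 19 members, against 32.9% of all probe sets. The median difference was 0.20 for members and 0.10 for all probe sets. With centred arrays these medians were 0.04 and -0.06, and 4 members were higher and 2 lower, against 19.1% of all probe sets called. After quantile normalization the medians were 0.24 and 0.03, with 10 higher and 1 lower, against 11.2% of all probe sets. The arrays of the lines were fully separate for 26 members (22 higher, 4 lower in the rga line), against 50.9% of all probe sets (32.6% higher, 18.3% lower). This comparison and the vector line's DEX comparison share the 2 vector line GA4 arrays, so a low reading on one of these raises both changes of a gene. Both root hair markers moved in the same direction: EXPA7 was higher in the rga line by 1.58 ± 0.49 (adjusted p = 0.0341) and EXPA18 by 0.99 ± 0.32 (adjusted p = 0.0406), and their part in the members' differences was not tested. After quantile normalization neither marker was called (differences of 0.54 and 0.87), and with centred arrays 1 was. The higher 3′ to 5′ actin ratio of the vector line and the line itself cannot be told apart.

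Photosystem II held 4 of the 10 called members, which is 26.7% of its 15 members against 17.6% of all probe sets tested. The psbT gene, for a small subunit of the photosystem II core, read 3191, 2829 and 4030 in the rga line and 1957 and 1844 in the vector line, fully separate groups. The difference was 0.80 ± 0.16 (adjusted p = 0.00264), and psbT was called under each alternative setting and with each array left out (adjusted p at most 0.0364). Its vector line DEX arrays, at 2174 and 2511, also lay below the rga line's 4 h DEX arrays, at 3573, 3461 and 3113. For psbD, the D2 reaction centre protein, the rga line read 3521, 3617 and 2706 and the vector line 2506 and 1795, a difference of 0.62 ± 0.16 (adjusted p = 0.0136), which was 0.38 (adjusted p = 0.236) without the second vector line array and 0.54 (adjusted p = 0.0501) without the second rga line array. For psbH, a small phosphoprotein of photosystem II, the values were 14630, 11650 and 12300 against 10530 and 9584, a difference of 0.35 ± 0.11 (adjusted p = 0.0405), which was 0.28 (adjusted p = 0.269) without the second vector line array, 0.42 (adjusted p = 0.086) without the first, 0.25 (adjusted p = 0.156) without the first rga line array and 0.19 (adjusted p = 0.23) with arrays centred on their medians.

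The one member that was lower in the rga line was psbN, which lies between psbT and psbH on the opposite strand and codes for a protein needed to assemble the photosystems. It read 248, 163 and 213 in the rga line and 392 and 443 in the vector line, with no overlap. The difference was -1.02 ± 0.26 (adjusted p = 0.0129), and it was -0.94 (adjusted p = 0.113) without the second vector line array, -1.11 (adjusted p = 0.0512) without the first, and -0.86 (adjusted p = 0.0509) without the second rga line array. With DEX the vector line also read higher for psbN, at 413 and 351, than the rga line at 4 h, at 233, 286 and 219. Thus psbN was lower, and its neighbours psbT and psbH on the other strand higher, in the rga line than in the vector line under GA4. At 2 h the rga line arrays of psbN ran from 186 to 389, so that they reached up to the vector line GA4 values without passing them.

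The other called members were the NDH gene ndhH, the photosystem I gene psaC, the ATP synthase genes atpH and atpF, the polymerase gene rpoC2, and cemA. For ndhH the rga line read 1858, 1492 and 1939 and the vector line 1293 and 640, a difference of 0.95 ± 0.22 (adjusted p = 0.00729), which was 0.44 (adjusted p = 0.196) without the second vector line array. For psaC the values were 4260, 3796 and 4600 against 3344 and 2194, a difference of 0.64 ± 0.14 (adjusted p = 0.00719), which was 0.33 (adjusted p = 0.189) without that array. For atpH and atpF the differences were 0.47 ± 0.15 and 0.42 ± 0.12 (adjusted p = 0.0408 and 0.0273) with all arrays and 0.09 and 0.19 without that array. Both also lost the call without the first rga line array, atpH without the second (adjusted p = 0.0589) and atpF without the third (adjusted p = 0.0629). In these 4 genes the first vector line array lay below the rga line's 4 h GA4 arrays, for atpH narrowly (8738 against 8769), and the second far below them. Against all 12 rga line arrays the first vector line array lay inside the range for ndhH, atpH and atpF, and below it for psaC.

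For rpoC2 the rga line read 3761, 3445 and 4595 and the vector line 2648 and 2658, a difference of 0.56 ± 0.16 (adjusted p = 0.0243). The 2 vector line arrays were alike, and the adjusted p was 0.113 and 0.125 without the first and the second of them, and 0.0745 without the third rga line array. For cemA the difference was 0.29 ± 0.10 (adjusted p = 0.0468), which passed the threshold with no array left out and in neither of the other scalings. Without the second vector line array most of the 10 calls did not hold. The members' median difference was then 0.13 and that of ndhF was 1.39, on a single vector line array. Members with large but uncalled differences were ndhF (0.86 ± 0.34, adjusted p = 0.0902) and rpoB (0.67 ± 0.26, adjusted p = 0.0841), and rbcL was -0.34 ± 0.14 (adjusted p = 0.0924). The rpoB signal was 1092, 778 and 1009 in the rga line and 711 and 502 in the vector line.

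In the rga line, 4 h was compared with 2 h within each treatment. With GA4 alone 0 of 54 members were called, against 1.54% of all probe sets tested, and 0 passed an unadjusted p below 0.05, against 10.6%. No member had separate arrays, against 14.5% of all probe sets. The median change was 0.02. The lowest change was that of psbA (-0.42 ± 0.25, adjusted p = 0.623) and the highest that of rpoB, which read 1019, 519 and 770 at 2 h and 1092, 778 and 1009 at 4 h (0.36 ± 0.23, adjusted p = 0.683). With GA4 plus DEX 0 of 54 were called, against 4.15%, 8 had separate arrays, against 20.8%, and 2 passed an unadjusted p below 0.05, against 15.6%: petN (-0.72 ± 0.31, adjusted p = 0.265) and ndhA (0.24 ± 0.11, adjusted p = 0.283). For petN the 2 h arrays read 954, 912 and 443 and the 4 h arrays 579, 371 and 400, which overlap through the third array at 2 h. The 4 polymerase genes all had positive changes with DEX from 2 h to 4 h, 0.13 to 0.29, and none was called.

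The remaining plastid-encoded genes on the array, 15 genes of ribosomal proteins (rps and rpl), gave the following beside the members. None of the 15 was called for DEX at 2 h or at 4 h in the rga line. With DEX in the vector line 2 were higher, where 17.7% of all probe sets were: rps15 (0.61 ± 0.19, adjusted p = 0.0142) and rpl32 (0.54 ± 0.21, adjusted p = 0.0413). None was lower, and the median change was 0.21. With centred arrays 11 of 15 were higher (median 0.48), and after quantile normalization 2 were (median 0.19). In the rga line against the vector line under GA4, 6 of 15 were higher, where 11.5% of all probe sets were, and none lower, with a median of 0.26. With centred arrays 0 were higher and 1 lower (median 0.11), so these calls rest on the scaling. From 2 h to 4 h with DEX, rpl36 and rps2 were higher by 0.57 ± 0.13 and 0.47 ± 0.11. The difference between the lines' DEX effects was called for rpl20 (-0.84 ± 0.26, adjusted p = 0.0184).

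Of the nuclear genes of the same complexes, listed with RCA, those called with DEX in the vector line were lower, and most of the list was not called. Of 10 tested, including LHCB4.2 (a minor antenna protein of photosystem II), PSBY, PSAN and ATPC1 (the gamma subunit of the ATP synthase), 0 were higher and 4 lower with DEX in the vector line, and the median change was -0.34 (-0.26 after quantile normalization, -0.07 with centred arrays). LHCB4.2 had a change of -2.53 ± 0.14 (adjusted p = 1.46e-10), PSBY -0.87 ± 0.13 (adjusted p = 2.65e-05) and PSAN -0.69 ± 0.14 (adjusted p = 0.000468). At 4 h LHCB4.2 was also lower in the rga line, with a change of -0.43 ± 0.11 (adjusted p = 0.0345), and the difference between the lines' effects was 2.10 ± 0.18 (adjusted p = 1.71e-07). With centred arrays LHCB4.2 was not called in the rga line, where the lowest change of the list was -0.41. Between the lines under GA4 1 of the 10 was higher, LHCB4.3 (0.62 ± 0.21, adjusted p = 0.0497), where 11.5% of all probe sets were. With centred arrays 0 were higher. The share of called probe sets over the whole array, given above, is the background of these counts.

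Nuclear genes for processing, editing and stability of plastid RNA were listed by symbol, with 12 probe sets on the array, of which 10 were tested. The list also took OTP43 and OTP87, which act on mitochondrial RNA. With DEX in the vector line 0 were higher and 5 lower, where 29.6% of all probe sets were called lower. The median change was -0.63 (-0.37 and -0.36 under the other scalings), beside -0.15 over all probe sets under the deposited scaling. The called genes were ATAB2 (-1.41 ± 0.15, adjusted p = 4.86e-07), an activator of photosystem messages, and the pentatricopeptide repeat editing factors CRR21 (-1.94 ± 0.21, adjusted p = 5e-07), OTP84 (-1.21 ± 0.25), CRR28 (-2.01 ± 0.55) and OTP81 (-0.59 ± 0.21). The CRR28 signal was low, at 68.3 and 64.6 with GA4 and 34.1 and 7.75 with DEX. Its last value was raised to the floor, so the size of its fall rests in part on the floor. CRR21 and CRR28 act on ndhD transcripts, and the ndhD probe set changed by 0.06 ± 0.10 in the same comparison. None of the 10 was called in the rga line at 2 h or at 4 h. Between the lines under GA4 OTP70 and OTP43 were higher, where 11.5% of all probe sets were, and none of the list was after quantile normalization. The difference between the lines' DEX effects was called for 4 of the 10, where 30.5% of all probe sets were called. Among these were CRR21 (1.57 ± 0.27, adjusted p = 0.000231) and ATAB2 (1.36 ± 0.20, adjusted p = 3.9e-05).

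Mitochondrion-encoded genes, taken by symbol after the data had been seen, had 18 tested probe sets. None was called for DEX in either line under the deposited scaling. Of all probe sets tested 4.14% and 5.16% were called in the rga line at 2 h and 4 h, and 47.3% in the vector line. With centred arrays 1 mitochondrial probe set was higher in the vector line, where 47.1% of all probe sets were called. The median change of the 18 with DEX in the vector line was -0.01 under the deposited scaling, 0.17 after quantile normalization and 0.26 with centred arrays. Between the lines under GA4 1 of the 18 was higher in the rga line, where 11.5% of all probe sets were, and their median difference was 0.35.

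Transcription units, which group cotranscribed genes, were compared by how far their genes' changes lay apart. The 42 members that textbook transcription units group into 12 units (assigned after the values had been seen) gave 64 pairs within a unit and 797 between units. With DEX in the vector line the changes of 2 genes differed by a median of 0.19 within units and 0.23 between them, and for the line difference under GA4 by 0.28 and 0.26. For DEX in the rga line these medians were 0.09 and 0.08 at 2 h and 0.07 and 0.10 at 4 h, and for 4 h against 2 h they were 0.09 and 0.12 with GA4 and 0.08 and 0.13 with GA4 plus DEX. For the difference of the DEX effects they were 0.19 and 0.22. Thus the changes lay closer together within units in 5 of the 7 comparisons, by at most 0.05. In the unit atpI, atpH, atpF and atpA the vector line's DEX changes were 0.53, 0.56, 0.41 and 0.19. In the unit of psaI, ycf4, cemA and petA they ran from 0.19 to 0.27, the narrowest range of the units with 4 or more genes. In the long ndhH to ndhD unit, which includes psaC, they ran from 0.06 for ndhD to 0.65 for ndhH. Pairs share arrays and probe sets differ in response, so these are descriptions.

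**Figure D5:**
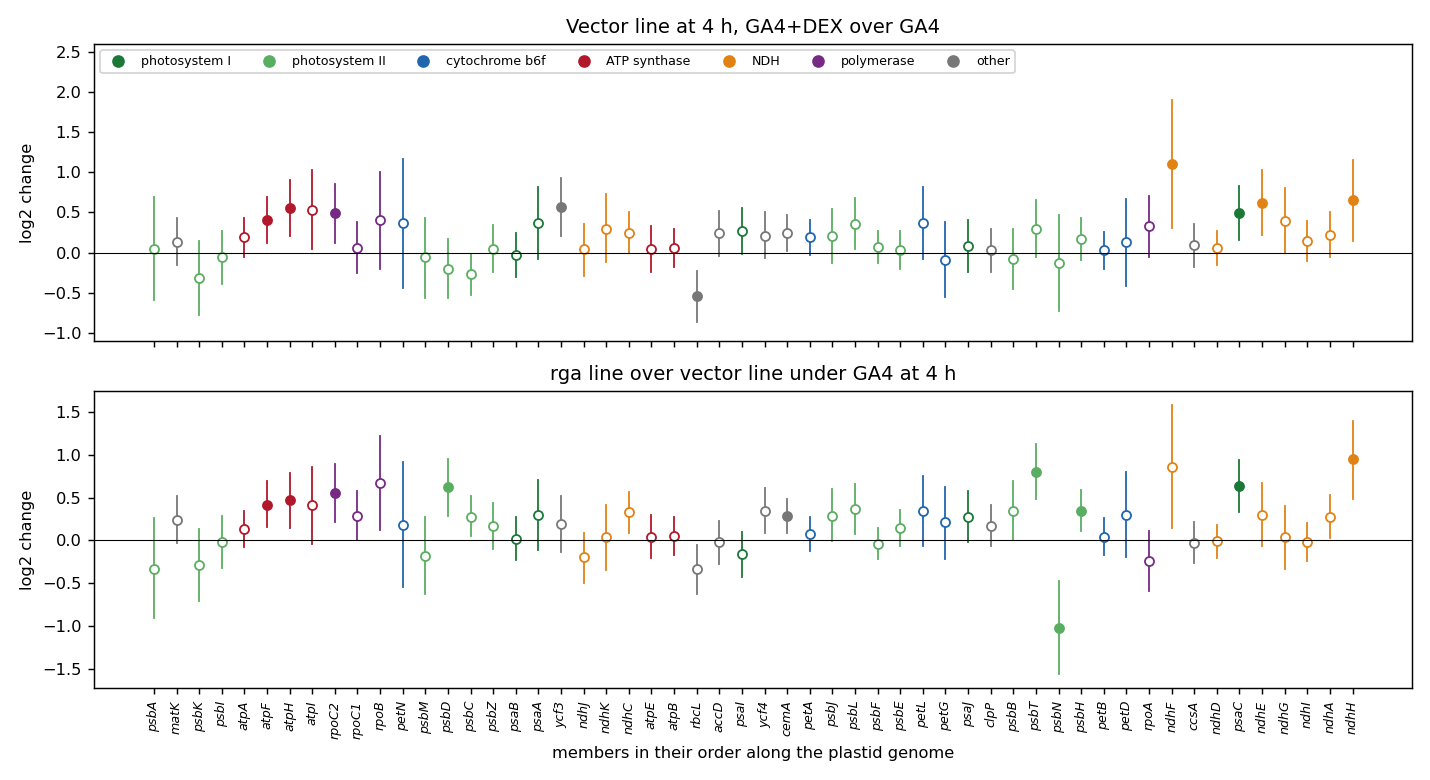
Log2 change (with 95% interval) of the members in their order along the plastid genome, coloured by complex and filled where called, for DEX in the vector line (top) and for the rga line over the vector line under GA4 (bottom). Called members lie scattered along the genome, and psbN stands below its neighbours psbT and psbH in the lower panel.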

How the data were processed

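Single-colour ATH1 arrays measured transcript levels in 16 samples (12 of the rga line, 4 of the vector line), and this number limits the precision. The authors deposited a linear intensity for every probe set, computed with MAS5 according to the submitters' processing notes, which name no version. The trimmed mean lay between 500.0 and 500.1 on all arrays, and this scaling was kept. Of 22810 probe sets 64 controls were dropped. Intensities below the 10th percentile (7.945) were raised to it before log2, and the dimmest 25% by mean log2 were left out, leaving 17059. Group means of the 6 groups were fitted with limma 3.58.1 in R 4.3.3 over all arrays at once (10 residual degrees of freedom, eBayes with a mean-variance trend), and this fit gave every SE of a log2 change. Calls used a Benjamini-Hochberg adjusted p below 0.05. The scripts were tested on simulated data. No scan date or other batch is given in the sources used here. Replicate numbers were not taken to pair the arrays. Over the members alone, same-numbered rga line arrays at 2 h did correlate in their deviations from the group means, at 0.29 to 0.451.

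Named on every array were the 2 members of each complex with the highest mean signal and, in each of the 7 comparisons, the highest and the lowest change. Called members, and those at an unadjusted p below 0.05, were named after their values had been seen. Members and lists were chosen with earlier results of these data known. A list of nuclear genes for plastid transcription matched 0 probe sets. Probe genes came from the platform annotation, with 1 gene for 13513 probe sets and several for 503. Alternatives were 2 other scalings, an offset of 50, other filters, no trend, only the arrays compared, a replicate block, each array left out, and, added after the data had been seen, a fit without the vector line DEX arrays.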

Additional observations from a re-analysis of the deposited data

How the results depend on the processing

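No direction of a named member's called change reversed under any alternative run. Members called for DEX in the vector line numbered 9, against 47.3% of all probe sets. They were 32 with arrays centred on their medians (median change 0.45), against 47.1% of all probe sets. They were 14 with only the arrays compared (49.4%), 15 with the replicate block (47.3%) and 5 with dim probe sets kept (35.3%). For the difference of the DEX effects at 4 h the count was 0, against 30.5% of all probe sets. It was 1 after quantile normalization, against 24.9%, and 14 with centred arrays (median -0.43), against 30.3%. It was 3 with only the arrays compared (30.1%) and 2 with the replicate block (30.4%). For the rga line against the vector line the count was 10, against 17.6% of all probe sets. It was 6 with centred arrays (19.1%), 5 with dim probe sets kept (11.7%) and 5 without the trend (15.6%). With each array left out in turn the counts ranged from 4 to 7 for DEX in the vector line (medians 0.06 to 0.25), 0 to 5 for the difference of effects (-0.27 to -0.10), 3 to 9 for the line comparison (0.13 to 0.22) and 0 to 1 for DEX at 2 h in the rga line (-0.07 to 0.03). They stayed at 0 for DEX at 4 h in the rga line (medians -0.03 to 0.03) and for both time comparisons (-0.03 to 0.04 with GA4, 0.03 to 0.07 with DEX). The causes were not tested, beyond the fewer arrays or probe sets that some of these settings hold. Same-numbered arrays had correlations of their deviations between -0.084 and 0.259 over all probe sets, so the numbers were not taken as pairs. Over the members alone the 3 same-numbered pairs at 2 h correlated at 0.29, 0.451 and 0.411, a hint of shared deviation that the labels do not explain. The 6 others gave -0.279 to -0.121. Deviations from a group mean cancel within the group, so these negative values follow in part from the positive same-numbered ones and add little to them. The members' mean deviation at 2 h was 0.13 with GA4 and 0.09 with DEX on the first arrays. On the third arrays it was -0.13 and -0.11. At 4 h in the rga line the same-numbered pairs gave -0.156 to 0.363. With the block the adjusted p of psbA for DEX at 2 h in the rga line was 0.0666 (change -0.40). The replicate block could not be estimated for the time and line comparisons, and it changed no other call count. Over all probe sets the share of rises among those called was 37.4% for DEX in the vector line and 58.1% with centred arrays, 65.5% and 42.4% for the difference of effects, and 65.7%, 53.7% after quantile normalization and 35.4% with centred arrays for the line comparison.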
